A study of Homo sapiens with 6 samples.

Results

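The cytosolic ribosomal protein genes were examined in HEL cells, a human erythroleukemia cell line. Members were chosen by name: RPL or RPS with a number and an optional A or X, together with RPLP0, RPLP1, RPLP2, RPSA and FAU. Pseudogenes and names ending in L, such as RPS27L, were left out. The rule found 78 genes among the 31999 listed, 46 of the large subunit and 32 of the small subunit. Poly(A) RNA was sequenced from 6 libraries of HEL cells grown in RPMI with serum, all transduced with a lentiviral small hairpin RNA. In 3 libraries the hairpin was the non-targeting control shCtrl, and in 3 it was shTMIGD2, directed against TMIGD2, a receptor with an immunoglobulin domain that belongs to the CD28 family. The comparison has 1 hairpin label for TMIGD2 in 1 cell line. The deposited table holds 1 level per gene, the authors' log2 CPM (read counts scaled to the library's total), and no value per library. It also lists the authors' own test of shTMIGD2 against shCtrl, whose fold changes and p-values are findings of the study and were not used here. The level is taken here as a mean over all 6 libraries, and whether the mean was taken before or after the log is not stated. The levels therefore describe HEL cells with either hairpin, with no error between libraries and no depth per library. No difference between the hairpins is given.

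Ribosomal proteins, with the ribosomal RNAs, build the small subunit, which decodes the messenger RNA, and the large subunit, which joins the amino acids. Each ribosome needs the proteins of both subunits in near-equal number. Their genes are among the most strongly transcribed in growing cells, and most of their messenger RNAs begin with a pyrimidine tract through which translation responds to mTOR. Red cell precursors are especially sensitive to a shortage of single ribosomal proteins, as the inherited Diamond-Blackfan anaemia shows.

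The labelled cell type was checked against marker genes. All 8 erythroid markers were listed at 85.6 CPM or more, with HBA1, an alpha globin gene, at 888 CPM and GATA1, a master regulator of erythroid genes, at 251 CPM. Of 4 megakaryocyte markers 3 were analysed, and they ranged from 71.6 CPM to 1490 CPM for ITGA2B. In contrast, CD247 of T cells, and CD14 and ELANE of monocytes and granulocytes were each at 0.158 CPM or less. CD79A of B cells and LYZ of monocytes were higher, at 5.0 and 21.2 CPM.

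Ribosomal protein genes stood at the top of the range of expression. They made up 0.244% of the genes listed but 9.72% of all CPM, 5.66% from the large subunit and 4.06% from the small subunit. Their median was 1093 CPM, or 10.09 on the log2 scale, whereas the median over all genes listed was -0.97. Over the 14000 genes with a log2 CPM of 0 or more the median was 4.55. The median member was at percentile 99.75 of the genes listed. Of the 100 genes with the highest mean CPM, 47 were members, and of the 1000 highest, 72 were. At least 1000 CPM were listed for 44 members.

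**Figure D1:**
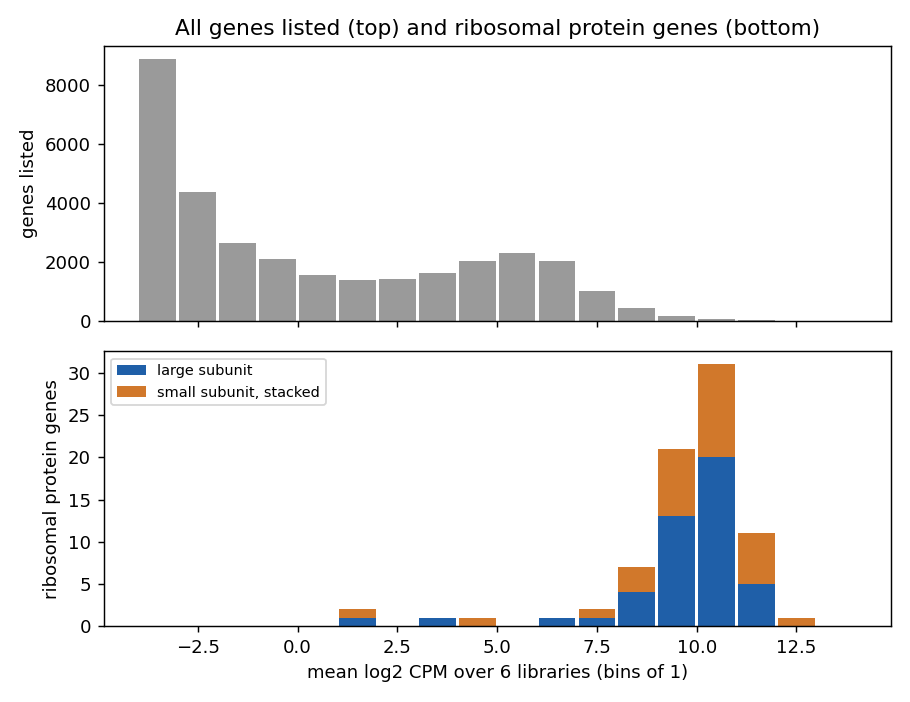
Number of genes per bin of 1 in mean log2 CPM over the 6 libraries, for all 31999 genes listed (top) and for the 78 ribosomal protein genes, with the small subunit stacked on the large (bottom). Most members lie between 8 and 12, beyond the bulk of all genes, and 5 members lie under 7.

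RPS6, a small subunit protein phosphorylated downstream of mTOR, had the highest CPM of the members. It was listed at 4954 CPM and ranked 2 among all genes, after the elongation factor gene EEF1A1 at 15456 CPM. RPL4, which lines the tunnel through which the new protein leaves, followed at 3889 CPM and rank 5. RPLP0, the base of the stalk that recruits elongation factors, was at 3621 CPM and rank 6. RPL13A, known also as a regulator of translation outside the ribosome, was at 3319 CPM and rank 10. These 4 genes were the members among the 10 highest genes.

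**Figure D2:**
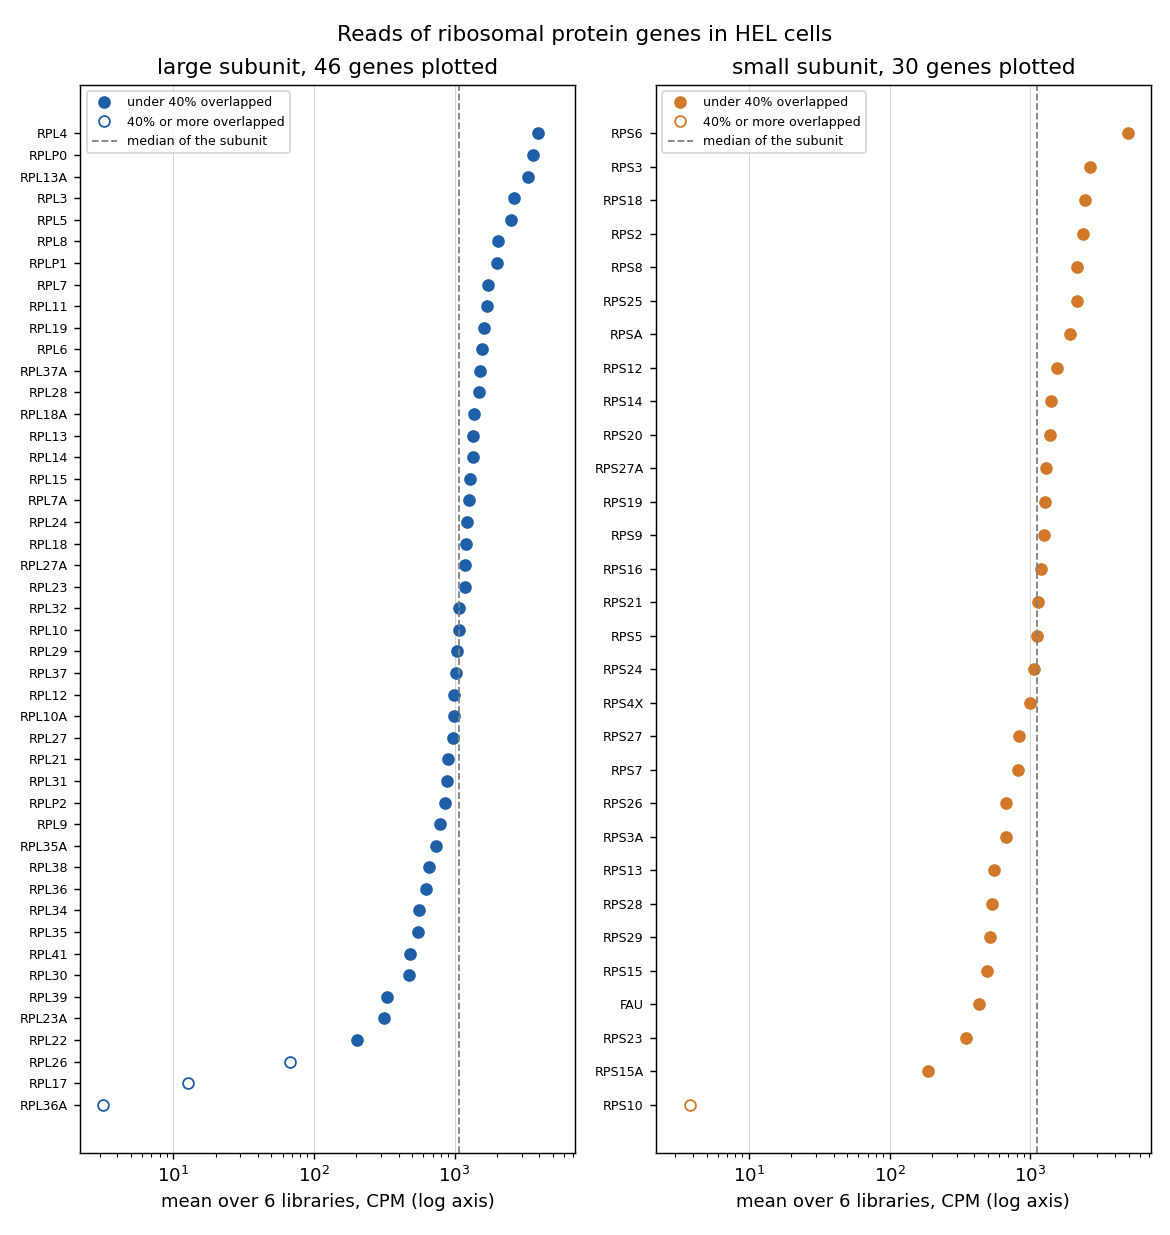
Mean CPM over 6 libraries on a log axis for the 46 large subunit genes (left) and 30 of the small subunit genes (right), sorted within each subunit. Open circles mark genes with at least 40% of the reference transcript under exons of another gene, and the dashed line is the subunit median. The 4 open circles lie under 100 CPM, and all other genes plotted at 188 CPM or more.

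A longer transcript gives more fragments, so levels were set between genes per kilobase (kb) of the reference transcript. On this scale RPS18 was the highest of all members at 12.13, as log2 CPM per kb. It lies on the plus strand of chromosome 6 from 33272075 to 33276511 (GRCh38). RPS25 was at 12.11, RPS6 at 11.82 and RPS21 at 11.64. All of these belong to the small subunit, as did 8 of the 10 highest members on this scale, against 32 of all 78 members. In the large subunit, RPLP0 was the highest at 11.68, followed by RPL13A at 11.52, RPL5 at 11.25, RPL19 at 11.11 and RPL24 at 11.10. These orders changed with the length scale. Per kb of coding sequence the highest members were RPS6 at 12.70, RPL41 at 12.66 and RPLP1 at 12.53, and RPL41 and RPLP1 belong to the large subunit. Whether neighbours in any of these orders differ beyond the spread between libraries cannot be said, since no value per library was analysed.

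Per kb of transcript the stalk gene RPLP0 was at 11.68, RPLP2 at 10.87 and RPLP1 at 10.75 log2 CPM per kb, the last 2 coding for the acidic proteins that form pairs on RPLP0. Their order changed with the length scale, with RPLP1 at 12.53, RPLP0 at 11.89 and RPLP2 at 11.29 per kb of coding sequence. RPL5 and RPL11, which carry the 5S ribosomal RNA and can bind MDM2 when ribosome assembly fails, were at 11.25 and 10.70. Among the genes of the exit tunnel and its rim, RPL4 was at 10.47, RPL35 at 10.24, RPL39 at 9.73 and RPL23A, a docking site for the signal recognition particle, at 8.34. RPL17, from the same list, stood far lower at 4.37. Exons of another annotated gene cover 96.9% of its reference transcript, so this level is uncertain.

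RPS27A and FAU code for a small subunit protein fused to ubiquitin or to a ubiquitin-like protein, and the fusion is cut after translation. RPS27A was at 10.69 and FAU at 9.73 log2 CPM per kb. RACK1, a small subunit protein whose name is outside the rule, was at 10.59, near the small subunit median of 10.62.

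Of 12 genes known for Diamond-Blackfan anaemia, 9 ranked among the 1000 highest genes. RPS19, the gene most often affected, was listed at 1280 CPM, RPL5 at 2509 CPM, RPL11 at 1690 CPM and RPS24 at 1058 CPM. RPS26 was at 674 CPM, RPS7 at 821 CPM, RPL35A at 735 CPM, RPL15 at 1298 CPM and RPS29 at 515 CPM. RPL26 at 67.3 CPM and RPS10 at 3.82 CPM stood far lower. Per kb of transcript the 12 genes had a median of 9.27, against 10.29 over all members, with RPS10 the lowest at 2.70 and RPL5 the highest at 11.25. The gap followed the length scale, with medians of 11.09 against 11.19 per kb of coding sequence and 9.60 against 10.09 without division by length. RPS19 was at 9.31 per kb of transcript and at 11.52 per kb of coding sequence. Of the 12 genes 3 share at least 40% of their transcript with another annotated gene, as described for the lowest members, and their levels are uncertain.

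The large and small subunit were then compared. Their median levels per kb of transcript were 10.05 over 46 genes and 10.62 over 32 genes, a difference of -0.57 for large minus small. The SD over single genes, a description of their scatter and no error of the medians, was 1.85 in the large and 2.10 in the small subunit, or 1.20 and 1.39 without the members under 100 CPM. Members are not replicates of a condition, so no test was made. The large subunit held 59.0% of the members and 58.2% of their summed CPM, and the mean per gene was 1233 CPM in the large and 1271 CPM in the small subunit.

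The difference followed the length scale. Without division by length the medians differed by -0.06, and per kb of coding sequence by -0.29, with 11.11 in the large and 11.40 in the small subunit. Per kb of the union of all annotated exons the sign turned, to 0.14. Without the 9 members under 100 codons it was -0.01 per kb of transcript. The median reference transcript was 994 bases long in the large and 723 in the small subunit, whereas the coding sequences had medians of 474 and 446 bases. Of the large subunit genes 4 have reference transcripts of over 4 kb, RPL37 with 7573 bases, RPL14 with 7136, RPL27A with 4535 and RPL28 with 4209. RPL37 was at 7.08 per kb of this transcript but at 11.78 per kb of its 291 coding bases.

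**Figure D3:**
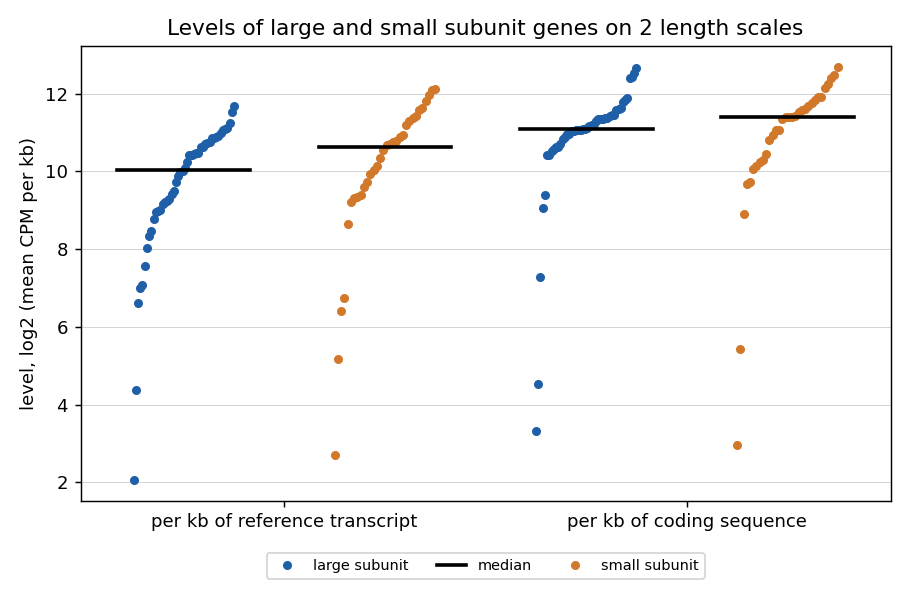
Level of each member as log2 of mean CPM per kb of reference transcript (left pair) and per kb of coding sequence (right pair), sorted within each subunit, with the median as a black line. The medians of the large and small subunit were 10.05 and 10.62 on the first scale and 11.11 and 11.40 on the second, and the genes of both overlap over nearly the whole range.

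Levels were more even per coding sequence than per transcript. Per kb of coding sequence 57 of the 78 members lay within 2-fold of their subunit's median, and per kb of transcript 44 did. The interquartile range in the large subunit was 0.72 per kb of coding sequence and 1.75 per kb of transcript. In the small subunit it was 1.49 and 1.92. Without division by length the interquartile range was 1.17 in the large and 1.58 in the small subunit, also narrower than per kb of transcript. RPL41, the shortest member with 25 codons, was at 12.66 per kb of coding sequence and at 9.49 per kb of its transcript of 676 bases.

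A few members, 5 of the 78, were under 100 CPM. Among them RPL36A was listed at 3.17 CPM, RPS10 at 3.82 CPM, RPL17 at 12.7 CPM and RPL26 at 67.3 CPM. RPS15A, at 188 CPM, was the lowest of the other 73, which spanned a 26.3-fold range, against 1565-fold over all members. RPL36A and RPL17 belong to the large subunit, as does RPL26, which contacts the p53 messenger RNA. RPS10 is a small subunit protein. In GRCh38 these genes lie at chr6:34417454-34426069 (RPS10), chr18:49488453-49492508 (RPL17) and chr17:8377516-8383213 (RPL26), all minus, and at chrX:101390824-101396155 (RPL36A, plus). Members under 100 CPM were also the lowest per kb of coding sequence, from 2.95 for RPS10 to 7.27 for RPL26. Per kb of reference transcript RPL36A was the lowest member at 2.06, and RPL26 at 6.99 lay above RPS15A at 6.42, RPL22 at 6.63 and RPS23 at 6.75.

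The members under 100 CPM all share exons with another annotated gene. In GENCODE 44, exons of another gene on the same strand covered 96.9% of the RPL17 reference transcript, where RPL17-C18orf32 is a readthrough gene. They covered 84.0% of RPS10, under RPS10-NUDT3, and 43.8% of RPL36A, under RPL36A-HNRNPH2, both also readthrough genes. Of RPL26 65.3% was covered, by a gene named only by its identifier. No member at 100 CPM or more reached 40%. FAU had 17.2%, RPL22 11.2%, RPS15A 9.90% and RPL13A 2.66%, and the other 69 members had none. Among 11204 other protein-coding genes listed at 1 CPM or higher, 2.78% were covered to at least 40%, with a median log2 CPM of 2.88, against 5.10 for the rest. The part of this overlap in the low values was not tested. The methods name a refSeq annotation for counting, while many genes are listed under clone-style names, so the overlap in the annotation that was used may differ from that in GENCODE 44. How reads shared by 2 genes were counted, and whether strand was used, are not given in the sources used here, so the levels of these genes are uncertain.

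**Figure D4:**
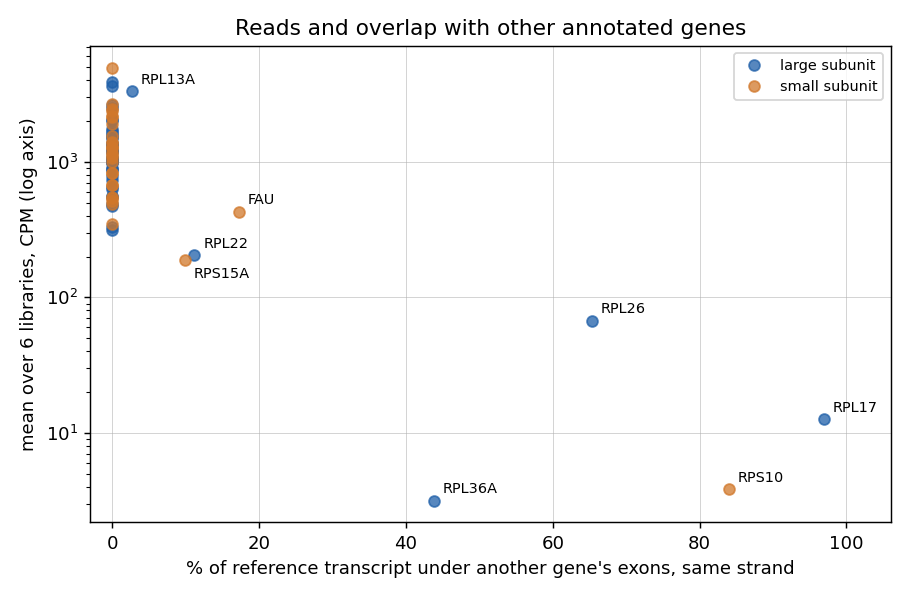
Mean CPM over 6 libraries on a log axis against the percent of the reference transcript under exons of another gene on the same strand, for 76 of the members. The 68 plotted at 0 lie at 314 CPM or more, the 4 with a small overlap at 188 CPM or more, and the 4 with 40% or more under 100 CPM.

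Ribosomal protein genes have many processed pseudogenes, copies of the messenger RNA set back into the genome, and reads of a gene and its copies can be exchanged. By name, 691 pseudogenes of 72 members were listed, up to 50 for RPL23A and 49 for RPSA. Together they held 3902 CPM, which is 4.01% of the members' sum, and 430 of them were under 1 CPM. The highest were RPS2P5 at 396 CPM, RPLP0P6 at 204 CPM and RPL13AP5 at 160 CPM. For the median member the pseudogenes summed to 3.03% of its own CPM. They exceeded the gene itself in 3 members, reaching 565% of RPS10, 257% of RPL36A and 170% of RPL17, which are among the low genes described. For RPL26 the share was 39.2%, for RPL22 25.8%, for RPS3A 24.0%, for RPL23A 21.2%, for RPL9 20.8% and for RPS2 20.6%. In total 12 members had pseudogenes at 10% or more of their own level. No pseudogene was listed by name for RPL27, RPL28, RPLP2, RPS9, RPS21 and RPS25.

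**Figure D5:**
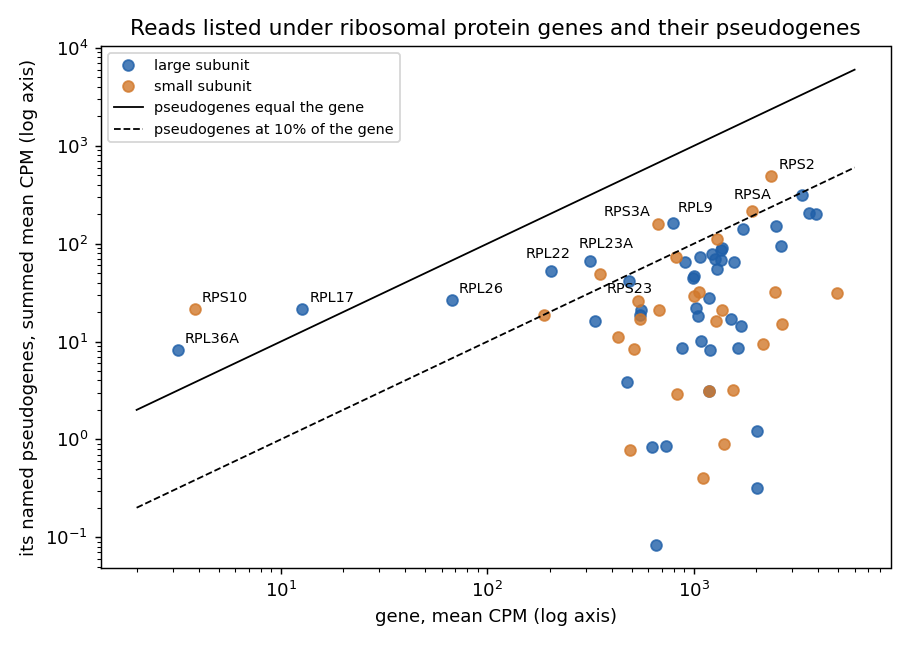
Summed mean CPM of the pseudogenes named after a member against the mean CPM of the member itself, both on log axes, for 70 of the members with at least 1 pseudogene listed. RPS10, RPL36A and RPL17 lie above the line of equal CPM, and most other members lie under the dashed line at 10%.

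Paralogs that keep an intact reading frame were mostly lower than their parents per kb of transcript. RPL22L1 was at 4.24 and RPL22 at 6.63, RPL26L1 at 4.99 and RPL26 at 6.99, and RPS27L, a p53 target, at 2.82 and RPS27 at 11.20. RPL7L1 was at 5.60 and RPL7 at 10.46, and RPL39L at 1.74 and RPL39 at 9.73. RPL36AL had the opposite order, at 7.90 against 2.06 for RPL36A, or 161 against 3.17 CPM. Exons of another annotated gene cover 43.8% of the RPL36A and 65.3% of the RPL26 reference transcript. The levels of these parents are therefore uncertain, and so are their gaps to RPL36AL and RPL26L1. RPL3L, known from striated muscle, and RPL10L, known from testis, were at 0.205 and 0.153 CPM. On the log2 scale these are -2.3 and -2.7, toward the lowest level listed for any gene, -3.76.

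The sequence around the annotated start was read from RefSeq (GRCh38.p14) for 63 of the 78 members, 10 of them with several listed starts. A tract was counted when the transcript began with C and at least 4 further pyrimidines followed, on the gene's own strand, at any listed start. It was present in 47 of the 63 members, or 74.6%, 28 of 38 in the large and 19 of 25 in the small subunit. Of all 27305 genes with a listed start 5.14% had it, and of 9509 other genes listed at 1 CPM or higher 7.24%. Members with the tract had a median of 10.24 log2 CPM per kb of transcript and the 16 without it 10.11. The following 30 bases, 15 on each side of the start, are shown for 2 of the highest members of each subunit and for 3 of the lowest, with the tract in capitals from the first transcribed base.
RPS18: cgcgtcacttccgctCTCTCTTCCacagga
RPS25: tctgagcagcgcttcCTTTTTgtccgacat
RPLP0: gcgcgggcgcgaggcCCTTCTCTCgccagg
RPL13A: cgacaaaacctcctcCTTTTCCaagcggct
RPS10: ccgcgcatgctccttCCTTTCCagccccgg
RPL36A: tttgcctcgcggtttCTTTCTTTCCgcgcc
RPL17: cctctttccctaagcagcctgaggtgagtg
They lie at chr6:33272060-33272089 (RPS18, plus strand), chr11:119018329-119018358 (RPS25, minus), chr12:120201097-120201126 (RPLP0, minus), chr19:49487593-49487622 (RPL13A, plus), chr6:34426055-34426084 (RPS10, minus), chrX:101390996-101391025 (RPL36A, plus) and chr18:49492451-49492480 (RPL17, minus). RPS10 and RPL36A, the members with the fewest CPM, carry tracts of 7 and 10 bases, against 6 to 9 in the highly expressed genes shown. The low levels of RPS10 and RPL36A are uncertain, given their overlap with other annotated genes. Where a gene had several listed starts, one with the tract was preferred. RPL17 has no tract at the listed start, and a run of pyrimidines lies upstream of that start in the bases shown. Of the starts shown, those of RPS18 and RPS10 match the end of the GENCODE span, and those of RPS25, RPLP0, RPL13A, RPL36A and RPL17 lie inside it. No listed start of RPL4, which ranked 5 among all genes, has the tract, and the start read begins with A. Where transcripts begin in HEL cells was not measured.

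The members are spread over 21 chromosomes. Chromosome 19 holds 12 of them, chromosome 3 holds 7, and chromosome X holds 4. RPS26 and RPL41 lie 71892 bases apart on chromosome 12 (GRCh38), at 674 and 486 CPM. RPL23 and RPL19 lie 346518 bases apart on chromosome 17.

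Other genes of protein synthesis were set beside the members per kb of transcript. Of the elongation factor genes 4 were analysed, with EEF1A1, which brings transfer RNA to the ribosome, at 12.10, EEF2, which moves the ribosome along the message, at 9.96, EEF1B2 at 9.51 and EEF1D at 5.10. The 21 genes of ribosome assembly had a median of 5.58 and ranged from 2.89 for RIOK2 to 10.72 for NPM1, a nucleolar chaperone. SBDS, which helps release the large subunit for translation, was at 4.11. The 77 mitochondrial ribosomal protein genes had a median of 5.32 and a highest value of 7.53 for MRPL37. All of them thus lay under the median of the cytosolic members, 10.29, and together they held 4970 CPM against 97421 CPM.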

How the data were processed

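Poly(A) RNA of 3 shCtrl and 3 shTMIGD2 HEL libraries, grouped by their labels, was sequenced. According to the methods, reads were mapped with STAR 2.6.1b to hg38, and HTSeq 0.6.1 assigned them to genes of a refSeq annotation, whose version was not used here. The authors' deposited table gives a log2 CPM per gene, taken here as a mean over the 6 libraries, the only column used. Its other columns hold the authors' log2 fold changes, F statistics, p-values and adjusted p-values of shTMIGD2 against shCtrl, which were not used. No values per library were analysed, so no comparison between groups, no depth and no interval is given, and the precision of each level is unknown.

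CPM was taken as 2 to the power of the deposited value. Lengths, positions and overlaps come from the Ensembl canonical transcripts of GENCODE 44 (GRCh38, the same assembly as hg38), matched by symbol for 22805 of 31999 rows and all 78 members. Pseudogenes were matched by name. Python 3.11.15 was used, and the scripts were tested on simulated data. Named genes were the 5 highest and 5 lowest per kb of transcript in each subunit, the role lists, and genes singled out after their values were seen. Some genes of these lists are not reported here, and 2 members were left out of the plots that name genes. The members and lists were chosen with earlier results of these data known. Overlaps and start sequences were examined after the levels had been seen. The effect of alternative length scales, members and totals is given in the closing section.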

Additional observations from a re-analysis of the deposited data

How the results depend on the processing

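A change was counted as a move when it exceeded 1.5-fold, since no spread between libraries is known. The difference of the subunit medians, -0.57 for large minus small per kb of transcript, reversed to 0.14 with the union of all annotated exons as the length. In the other 9 alternatives it stayed negative, between -0.57 and -0.01, the last without members under 100 codons. The percent of all CPM in ribosomal protein genes ranged from 9.72 to 10.1, and their median percentile from 99.42 to 99.75. Of 36 members named by rule or role, 19 moved against their subunit's median with the exon union, 18 per coding length, 18 without a length and 3 with pseudogene CPM added. Leaving out members overlapped by another gene, with either length, and leaving EEF1A1 out of the total were chosen after seeing the data. No paired analysis was possible because each gene has only a mean over all 6 libraries, and leaving out each library was not run for the same reason. Depth limits could not be computed.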
